A study of Mus musculus with 2 samples.

Results

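Genes of MHC class I antigen presentation were compared between 2 kinds of mouse epiblast stem cells derived from 1 embryonic stem (ES) cell line. The set held 10 genes chosen by name: H2-K1, H2-D1, B2m, Tap1, Tap2, Tapbp, Psmb8, Psmb9, Psmb10 and Nlrc5. They were 10 of 34650 gene names on the arrays and were carried by 14 non-control probes. Earlier results of these same arrays were known when the set was chosen, so the differences given here describe the set and were not tested. Both groups came from E14Tg2A, a single ES cell line of strain 129/Ola. EpiSC, short for epiblast stem cells, are ES cells that were transferred without an intermediate step to FGF2 at 12 ng/mL with Activin A at 20 ng/mL. ELA-EpiSC received the same factors at the same doses after ES cells had first formed Epiblast-Like Aggregates (ELA), floating clusters grown without serum and LIF. Each group was represented by 1 array, hybridized with a pool of RNA from 3 experiments, so no comparison had a replicate and no p-value could be computed. The titles and descriptions name total RNA of these cells, whereas the source fields of both samples name undifferentiated cells and, for EpiSC, an Argonaute immunoprecipitate. Groups were taken from the titles.

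Class I molecules display peptides from inside the cell to cytotoxic T cells. Peptides are cut by the proteasome, carried into the endoplasmic reticulum by the Tap1-Tap2 transporter and loaded, with the help of tapasin (Tapbp), on a heavy chain such as H2-K1 or H2-D1 paired with the light chain beta-2 microglobulin (B2m). Psmb8, Psmb9 and Psmb10 encode the catalytic subunits of the immunoproteasome, which interferon-gamma is known to induce. Nlrc5 is the transactivator of class I genes and acts through the X and Y boxes of their promoters. Pluripotent cells are known for low class I expression.

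The promoters of both heavy chains and of the light chain are shown first, since Nlrc5 and interferon signals are known to reach class I genes through motifs in this region. RefSeq promoter windows of assembly GRCm38.p6 matched 8 of the 10 genes, and none was used for Tap2 and Nlrc5. Motifs were searched on both strands of the 250 bases before each start, and matches are in capitals: the interferon response element GAANNGAAA, the gamma-interferon activated site TTCNNNGAA, the X2 box core TGACGC, the Y box CCAAT and the NF-kB consensus.
H2-K1, chr17:34000348-34000597, minus strand: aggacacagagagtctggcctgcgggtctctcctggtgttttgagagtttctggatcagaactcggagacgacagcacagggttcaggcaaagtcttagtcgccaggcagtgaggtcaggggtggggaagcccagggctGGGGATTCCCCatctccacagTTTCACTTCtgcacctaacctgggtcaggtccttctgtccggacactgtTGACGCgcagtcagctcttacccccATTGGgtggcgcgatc
H2-D1, chr17:35262844-35263093, plus strand: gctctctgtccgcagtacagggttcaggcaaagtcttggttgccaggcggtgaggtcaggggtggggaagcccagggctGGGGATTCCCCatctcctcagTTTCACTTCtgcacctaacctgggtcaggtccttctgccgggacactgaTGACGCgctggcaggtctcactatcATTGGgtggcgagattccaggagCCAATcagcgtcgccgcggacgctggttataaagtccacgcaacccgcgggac
B2m, chr2:122147437-122147686, plus strand: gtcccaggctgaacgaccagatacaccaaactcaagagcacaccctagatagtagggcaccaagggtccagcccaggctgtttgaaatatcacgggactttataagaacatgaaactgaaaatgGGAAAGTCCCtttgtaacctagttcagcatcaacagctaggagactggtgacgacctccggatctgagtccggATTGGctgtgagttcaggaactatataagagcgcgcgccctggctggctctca

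Both heavy chain promoters held an NF-kB match, an interferon response element, an X2 core and a Y box in the same order. The first letters of successive matches were 21, 49 and 25 bases apart in H2-K1 and the same distances apart in H2-D1. In each of them the NF-kB consensus matched at 2 overlapping positions. B2m held an NF-kB match and a Y box, and no match to the letters of the other motifs. Other spellings of the motifs were not searched, so a window without a match may still hold such an element. Shares were taken among 32851 promoter windows of this length. The letters searched for the interferon response element occurred in 6.31%, the NF-kB consensus in 3.9%, the X2 core in 6.12% and the Y box in 33.8%. All 4 together occurred in 5 windows, which belonged to 4 genes: H2-K1 with 2 windows, H2-D1, H2-M3 and Rab28. This combination was chosen after the matches were seen.

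Of the other matched members, Psmb8 held 1 gamma-interferon activated site, a motif of 7.02% of all windows, and Tapbp held 2 Y boxes. Psmb10 held no match to these letters in its window. Tap1 and Psmb9 are transcribed away from each other from starts with 225 bases between them, and this shared stretch, shown because a member lies on either side of it, held 1 Y box.
Tap1 and Psmb9, chr17:34187331-34187555, plus strand: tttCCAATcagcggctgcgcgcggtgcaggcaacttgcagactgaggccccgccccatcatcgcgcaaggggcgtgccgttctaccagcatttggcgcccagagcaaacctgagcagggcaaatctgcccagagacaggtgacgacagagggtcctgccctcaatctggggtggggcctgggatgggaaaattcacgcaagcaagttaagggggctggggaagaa
A match describes the letters of a window and not a factor bound there.

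Each array carried 55681 probes for mouse transcripts, of which 65% to 65.8% were well above background, and 0 spots were saturated. Values are log2 signals after background correction and quantile normalization, and a difference is the log2 value of ELA-EpiSC minus that of EpiSC. Where a gene had several detected probes, the brightest stood for it. Replicate spots gave the only error available: over 311 detected probes printed 10 times, the SD of the difference was 0.10 (root mean square), a figure for spot noise that leaves out labelling and culture. The number of arrays limits the precision of every value. Spike-in RNA added before labelling read 0.54 lower on the ELA-EpiSC array, with a range from -0.86 to -0.26 over 8 probes. Setting the spike-in probes equal would therefore raise every difference by 0.54, and which scale is right was not tested. Epiblast markers were present on both arrays (8 of 8), with Pou5f1 at 14.27 and 14.46. Of these, 6 were higher and 2 lower in ELA-EpiSC, and 0 differed by 1 or more. They ran from -0.84 (Dnmt3b) to 0.61 (Utf1), and the other lower one, Sox2 (-0.28), turned positive under spike-in scaling. Their summed linear signal was 325430 in EpiSC and 293844 in ELA-EpiSC, and without Dnmt3b it was 187643 and 216638.

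All 10 genes had a higher signal in ELA-EpiSC than in EpiSC, with a median difference of 1.29 against -0.01 over all 25851 detected genes. Among the 16649 genes that averaged 7.5 or more over both arrays, 750 (4.5%) were higher by 1 or more and 749 (4.5%) were lower by 1 or more. Of the 8 members that reached this mean, 7 were higher by 1 or more and 0 were lower. These shares restate how the set was chosen. Under spike-in scaling the split over all genes was 2612 higher and 321 lower, and with each array centred on its median it was 1114 higher and 517 lower. In bulk RNA, fewer cells of a type and less RNA per cell cannot be told apart.

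**Figure D1:**
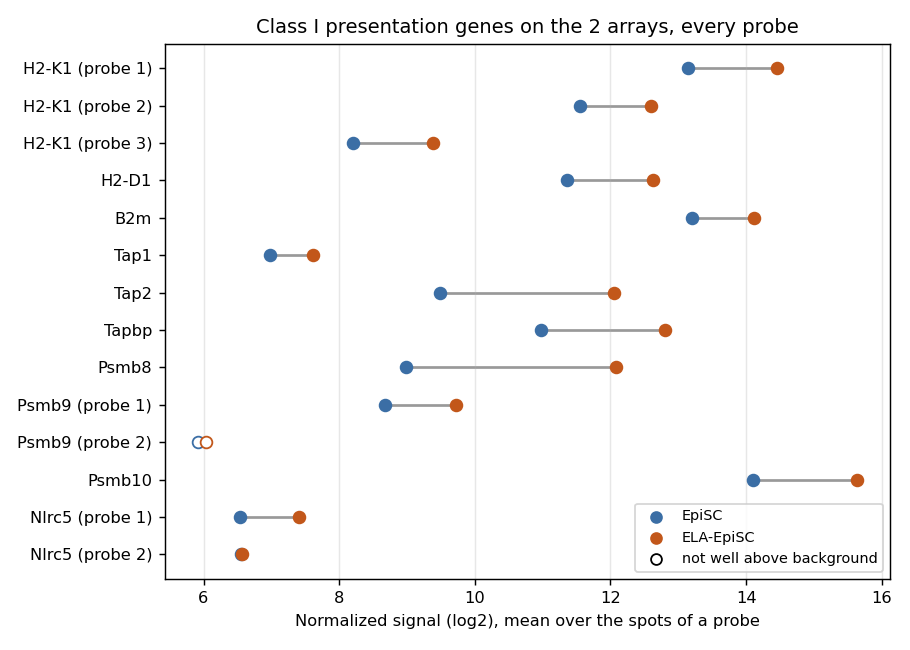
Normalized log2 signal (horizontal axis) of the 14 probes of the 10 class I presentation genes on the EpiSC array (blue) and the ELA-EpiSC array (orange); open circles mark a probe not well above background. The orange point lies to the right for all 14 probes, by 0.02 for the second Nlrc5 probe and by 3.1 for Psmb8; for that Nlrc5 probe and for the second Psmb9 probe the order turned under some other settings.

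The order of the differences ran from Psmb8 (3.1) over Tap2 (2.56), Tapbp (1.83), Psmb10 (1.53), H2-K1 (1.31), H2-D1 (1.27), Psmb9 (1.05), B2m (0.91) and Nlrc5 (0.87) to Tap1 (0.64). Neighbours from H2-K1 to H2-D1 and from B2m to Nlrc5 lay closer than the 0.10 spread of replicate spots. The place of Nlrc5, a dim gene, depended on the processing. With processed signal scaled to the 75th percentile it differed by 1.77, above Tapbp at 1.74. With all detected probes averaged it differed by 0.44, below Tap1 at 0.64. Psmb9, at 1.05, was the member just inside the size of 1 and B2m, at 0.91, the member just outside it. Psmb8 stood at rank 19 and Tap2 at rank 60 among the 16649 genes ordered by difference.

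The heavy chain H2-K1, which binds the peptide, had 3 probes under its name, and all of them were brighter in ELA-EpiSC. The brightest probe (mm9 chr17:34133055-34133114) was printed 10 times, and its raw signal ran from 7482 to 9433 intensity units (median 8033) in EpiSC and from 20092 to 28407 (median 22320) in ELA-EpiSC. The spots of the 2 arrays did not overlap. Its normalized level was 13.14 in EpiSC and 14.45 in ELA-EpiSC, a 2.48-fold difference with an SD of 0.16 (log2) over the 10 pairs of spots. The second probe (mm9 chr17:34133984-34134043) read 11.56 and 12.60, a difference of 1.04. The K(d) probe, which the array design assigns to a partial K(d) allele sequence without a genome position, read 8.20 and 9.38, a difference of 1.19. Whether the 129/Ola cells carry this allele was not tested, so this probe may read other class I transcripts.

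The second H2-K1 probe and the K(d) probe are not independent, because their sequences overlap. Their shared run of 22 bases is in capitals, followed by the bases in which they part.
H2-K1, K(d) probe: TTTGTGATGAAGATGAGAAGGAacacaggt
H2-K1, second probe: TTTGTGATGAAGATGAGAAGGAgaaacaca
Class I genes are close paralogs, so cross-hybridization matters for their probes. No array probe of another gene name was at least 80% identical to a member probe, counting identical bases of 60 in alignments without gaps. The closest were a probe named LOC547349 at 76.7% to the K(d) probe and one named Gm11127 at 73.3% to the second. Probes were compared with probes and not with transcripts, so a share of signal from paralogs was not tested.

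H2-D1, the other classical heavy chain here, had 1 probe (mm9 chr17:35403886-35403945). Its raw signal was 2351 units in EpiSC and 6894 in ELA-EpiSC. Its normalized level was 11.36 and 12.63, which made ELA-EpiSC 2.41-fold higher. B2m, the light chain shared by all classical class I molecules, had 1 probe (mm9 chr2:121978401-121978460) printed at 2 positions. Its spots read 7776 and 9612 units in EpiSC and 15348 and 22717 in ELA-EpiSC, without overlap. The difference was 0.76 and 1.05 at the 2 positions, with a mean of 0.91, so 1 spot lay on either side of a difference of 1.

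**Figure D2:**
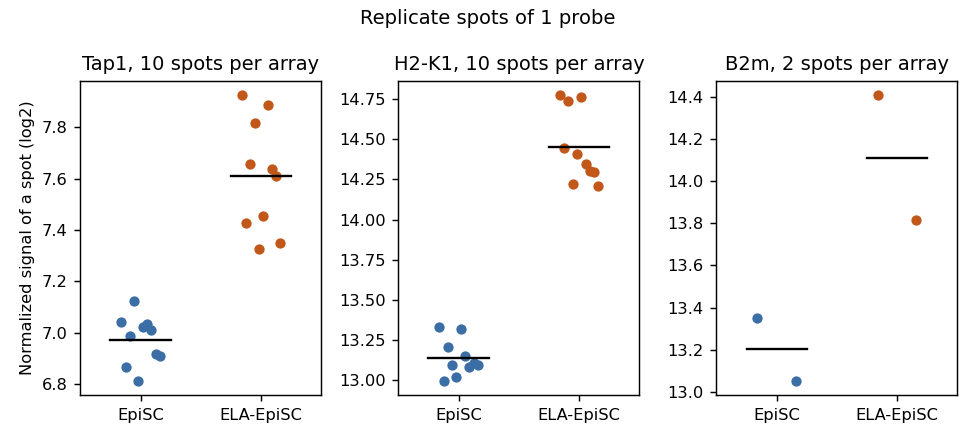
Normalized log2 signal of each spot (vertical axis) for the probes of Tap1, H2-K1 and B2m that were printed more than once, by array; black lines are means over spots of 1 array, which are not replicates of culture. Spots of the 2 arrays do not overlap for any of the 3 genes, and Tap1 spans 6.81 to 7.12 in EpiSC and 7.32 to 7.93 in ELA-EpiSC.

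The transporter subunits both read higher in ELA-EpiSC, by different amounts. Tap2 (mm9 chr17:34353116-34353175) rested on 1 spot, with 624 raw units in EpiSC and 4626 in ELA-EpiSC. Its normalized level was 9.49 and 12.05, a 5.88-fold difference. Tap1, its partner, was dim, and its 10 spots (mm9 chr17:34330854-34330913) ran from 74.8 to 102 raw units in EpiSC and from 136 to 230 in ELA-EpiSC over a local background of 20 to 30 units. These ranges did not overlap. The 10 paired differences ran from 0.43 to 0.88 with an SD of 0.16, and their mean was 0.64. The offset of 50 in the background correction compresses dim values, and with an offset of 0 the Tap1 difference was 0.94. Tapbp (mm9 chr17:34065963-34066022), which bridges the transporter and the heavy chain, had 1792 raw units in EpiSC and 7767 in ELA-EpiSC. Its level was 10.98 and 12.80, a 3.55-fold difference.

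The 3 immunoproteasome subunits were all higher in ELA-EpiSC, whereas the 3 catalytic subunits they replace differed little. Psmb8 (mm9 chr17:34337771-34337830), which takes the place of Psmb5, had 423 raw units in EpiSC and 4720 in ELA-EpiSC. Its level was 8.98 and 12.07, an 8.55-fold difference and the widest of the set. Psmb10 (mm9 chr8:108459677-108459736), which replaces Psmb7, had 16556 and 51444 raw units and levels of 14.11 and 15.64, a 2.90-fold difference. Psmb9 (mm9 chr17:34319174-34319233), which replaces Psmb6, had 342 and 898 raw units and levels of 8.67 and 9.72, a 2.07-fold difference. A second Psmb9 probe (mm9 chr17:34322762-34322821), designed on another transcript, stayed at background on both arrays (30.4 and 38.0 raw units).

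The constitutive partners differed by 0.13 for Psmb5, negative under both scalings to the 75th percentile, by -0.21 for Psmb6, positive under spike-in scaling, and by 0.29 for Psmb7. Each immunoproteasome subunit was set against its partner within the same arrays, since a shift common to all genes leaves this contrast as it is. The contrast was 2.96 for Psmb8 over Psmb5, 1.27 for Psmb9 over Psmb6 and 1.24 for Psmb10 over Psmb7. Over 11 other ways of computing the probe values it ranged from 2.93 to 3.41, from 1.26 to 1.69 and from 1.22 to 1.27. The other 11 subunits of the 20S core ran from -0.55 (Psmb1) to 0.23 (Psmb3), with a median of -0.14 that became 0.39 under spike-in scaling, and 0 differed by 1 or more. Of the proteasome activators and assembly factors, Psme1 differed by 0.87, and Psme3, Psme4 and Pomp ran from -0.50 to 0.32. Psme2 was not analysed here.

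Nlrc5, the class I transactivator, was dim on both arrays. Its brightest probe (mm9 chr8:97051105-97051164), which starts at base 6877 of the transcript, had 60.6 raw units in EpiSC and 149 in ELA-EpiSC over a background of 28 and 25 units. Its level was 6.54 and 7.41, a difference of 0.87. The other probe (mm9 chr8:97030478-97030624), which starts at base 4062, read 6.55 and 6.57, and over the other settings its difference lay between -0.24 and 0.56. The Nlrc5 difference therefore rested on 1 of its 2 probes.

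The listed factors that bind class I promoters lay mostly near 0. Of 10 listed, 0 were higher or lower by 1 or more at a mean log2 of at least 7.5, and the median was 0.20. Rfx5, the X box binding subunit of RFX, was well above background in ELA-EpiSC alone on its brighter probe, which makes it at least 3.0-fold higher there (6.06 and 7.65). Its other probe read 6.42 and 6.37, and with probes required on both arrays the gene's difference took the sign of that probe. The remaining 9 ran from -0.83 (Nfya) to 0.44 (Nfyc).

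**Figure D3:**
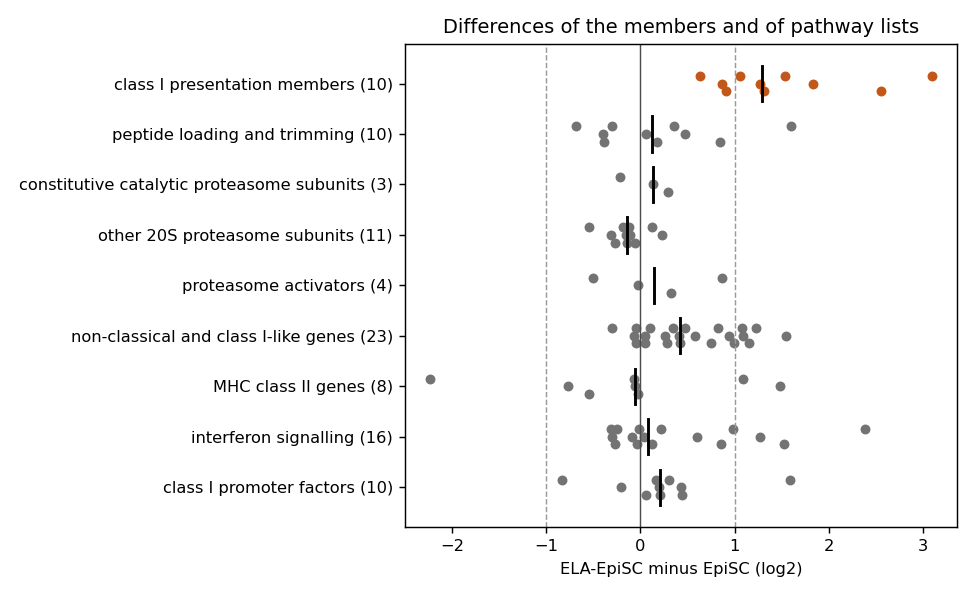
Difference in log2 signal, ELA-EpiSC minus EpiSC (horizontal axis), of every detected gene of the class I presentation set (orange) and of 8 pathway lists (grey), with the number of detected genes in parentheses; black bars are medians and dashed lines mark -1 and 1. The set has its median at 1.29, and the list medians run from -0.14 (other 20S subunits, positive under spike-in scaling) to 0.42 (non-classical and class I-like genes).

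The listed non-classical and class I-like genes were mostly higher in ELA-EpiSC as well. Of 23 detected, 19 were higher and 4 lower, with a median of 0.42 that was positive under all 14 other settings. The 4 lower ones were Cd1d2, Hfe, Fcgrt and Azgp1, class I-like genes without an H2 name, and all turned positive under spike-in scaling. Among the higher ones, 2 turned negative under scaling to the 75th percentile. Of the 16 with a mean log2 of at least 7.5, 5 were higher by 1 or more and 0 were lower. H2-M3, which presents formylated peptides, read 7.46 and 9.01, a difference of 1.54. H2-Q7 differed by 1.23, H2-K2 by 1.15, H2-Q2 by 1.09 and H2-Q8 by 1.07. Probes of these genes were compared with those of the members, and not with each other or with transcripts. Signal shared among class I paralogs was therefore not tested. H2-M3 carried the same combination of promoter motifs as the heavy chains, and Rab28, the other gene with it, read 10.54 and 10.06, a difference of -0.48.

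The other peptide loading and trimming genes lay on both sides of 0. Of 10 listed, 0 passed a difference of 1 at a mean log2 of at least 7.5, and their median was 0.12, negative under both scalings to the 75th percentile. Erap1, which trims peptides in the endoplasmic reticulum, read 6.47 and 8.06, a difference of 1.6 at a mean below that minimum.

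MHC class II genes present peptides from outside the cell, and those of the list other than Cd74 and Ciita lie among the members on chromosome 17. They went both ways. Of 8 detected, 2 were higher by 1 or more and 1 was lower by 1 or more. Cd74, the invariant chain, read 7.91 and 9.39, a difference of 1.48, and H2-Eb1 read 7.03 and 8.12, a difference of 1.09. H2-Oa, which modulates class II loading, read 10.15 and 7.92, a difference of -2.23. Ciita, the class II transactivator, was well above background in EpiSC alone, at 6.40 and 6.34.

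Interferon pathway genes were detected for 16 of 19 listed, 9 higher and 7 lower in ELA-EpiSC, with a median of 0.08. The lower ones reached -0.31 (Ifnar1) and turned positive under spike-in scaling. Of the 14 with a mean log2 of at least 7.5, 3 were higher by 1 or more and 0 were lower. The interferon genes Ifng and Ifnb1 and the regulator Irf7 stayed at background on both arrays. Irf1, a transcription factor that binds interferon response elements, read 12.39 and 14.77 on its bright probe, a difference of 2.38, and 6.08 and 6.27 on a dim second probe. Socs1, a feedback inhibitor of the pathway, read 9.13 and 10.65, a difference of 1.53. Jak2, a kinase of the interferon-gamma receptor, read 9.85 and 11.12, a difference of 1.27. Jak1, another kinase of this receptor, read 11.56 and 11.60, a difference of 0.04.

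Tapbp, H2-K1, Psmb9, Tap1, Psmb8, Tap2 and H2-D1 lie in the major histocompatibility complex, and their order along chromosome 17 was compared with that of their neighbours. Between the probes of Tapbp and H2-D1, over 1338 kb (mm9), 94 genes were detected and 75 had a mean log2 of at least 7.5. The 6 members among these were all higher by 1 or more, and Tap1 lay below that mean. Of the other 69, 4 (5.8%) were higher by 1 or more and 5 were lower, and their median was -0.06. Because the members were chosen with earlier results of these arrays known, this contrast restates that choice. Psmb9, Tap1, Psmb8 and Tap2 were 4 successive detected genes, with differences of 1.05, 0.64, 3.1 and 2.56. The class II genes on either side of them, H2-DMb1 and H2-Ob, differed by -0.76 and -0.07, the second with a positive sign under spike-in scaling. Outside this block, Ltb (3.86) and Aif1 (2.64) had the widest positive differences of the interval among genes that are not members, and Sapcd1 (-3.16) the widest negative one.

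**Figure D4:**
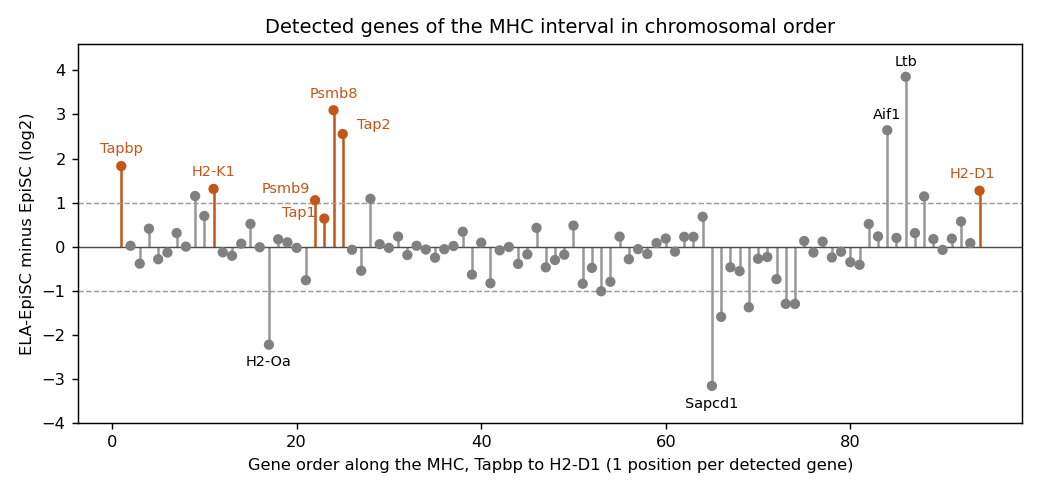
Difference in log2 signal, ELA-EpiSC minus EpiSC (vertical axis), of the 94 detected genes from Tapbp to H2-D1 in chromosomal order, 1 position per gene; orange marks class I presentation genes and dashed lines mark -1 and 1. Orange genes stand between 0.64 and 3.1, while most of their neighbours lie near 0.

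Markers of other cells were read beside these results, since leukocytes and stromal cells carry much class I RNA. Of 11 leukocyte markers, 9 were detected and 0 differed by 1 or more. Ptprc, the common leukocyte antigen, read 6.48 and 6.60, with a sign that turned under 1 scaling to the 75th percentile, and Spi1 and Lyz2 stayed at background on both arrays. The summed linear signal of leukocyte markers was 10401 in EpiSC and 12625 in ELA-EpiSC. Itgam carried most of it, with a sign that turned when all its probes were averaged, and without Itgam the sums were 3663 and 3943. Aif1 (6.34 and 8.98), Ltb (11.21 and 15.06) and Lta (6.44 and 7.58), genes of the interval that leukocytes are known to express, were not on the marker list and were chosen after their values were seen.

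Of 9 fibroblast markers, 8 were detected and 2 were higher in ELA-EpiSC by 1 or more, Col1a1 (7.07 and 10.78) and Pdgfra (7.98 and 9.74). Col3a1 read 6.52 and 8.39, a difference of 1.88 at a mean below 7.5. The other 5 ran from -0.33 (Dcn) to 0.50 (Pdgfrb). The summed signal of fibroblast markers was 3988 and 6691. Of 7 visceral endoderm markers, 5 had a mean log2 of at least 7.5, and 4 of these were lower by 1 or more. They were Hnf4a (12.79 and 7.67), Ambp (10.80 and 6.27), Gata4 (12.11 and 9.72) and Ttr. Ttr was at least 10.72-fold lower in ELA-EpiSC, where it was not well above background. Apoa1 (8.11 and 6.10), at a mean below 7.5, was at least 4.0-fold lower in ELA-EpiSC, where it was not well above background either. The summed signal of visceral endoderm markers was 26592 and 7770. Of 5 trophoblast markers, Tfap2c was higher by 1.16, and Gata3 (-2.56) and Elf5 (-1.48) were lower. Their summed signal was 10117 and 5603, and without Gata3 it was 3416 and 4468. Of 5 endothelial markers, 4 were detected and 0 differed by 1 or more. Their summed signal was 7087 and 5351, nearly all from Kdr, whose sign turned when its probes were averaged, and without Kdr it was 321 and 341. The part of such cells in the differences of class I genes was not tested.

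The direction of all 10 genes was the same under 14 other settings of background correction, scaling, spot signal, probe summary and detection. These were not all separate checks. Both changes of the detection filter left every member's value as it was, and averaging of probes changed H2-K1 and Nlrc5 alone. Spike-in scaling added 0.54 to each, which cannot turn a positive sign. Tap2, Tapbp, H2-K1, H2-D1, Psmb8, Psmb9 and Psmb10 were higher by 1 or more under each of them. B2m ranged from 0.80 to 1.45, Tap1 from 0.48 to 1.18 and Nlrc5 from 0.44 to 1.77.

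**Figure D5:**
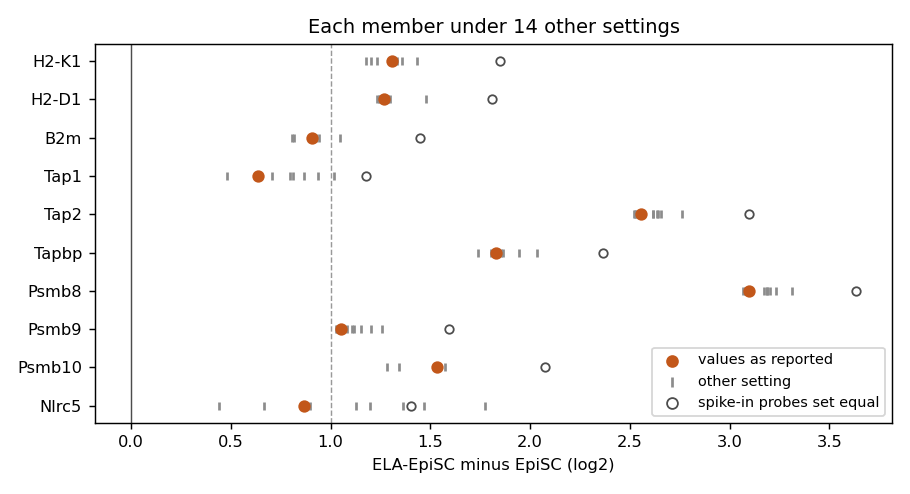
Difference in log2 signal, ELA-EpiSC minus EpiSC (horizontal axis), of the 10 class I presentation genes as reported (orange) and under 14 other settings (grey ticks, with spike-in scaling as open circles); the dashed line marks 1. All values are positive, and B2m, Tap1 and Nlrc5 fall on both sides of 1.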

How the data were processed

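RNA was measured on 2 one-colour Agilent SurePrint G3 mouse arrays, 1 of EpiSC and 1 of ELA-EpiSC, each with RNA pooled from 3 experiments, of which 50 ng was labelled per the labels (the study's methods state another amount). The authors deposited spot intensity on a linear scale with local background and quality flags, made with Feature Extraction 10.7.3.1 per the file headers and 9.1 per the submitters' processing notes, with probe coordinates of mm9. Both arrays were on 1 slide in 1 scan. A table of log2 values was deposited as well, background-corrected and quantile normalized with limma by the authors, which was used as an alternative.

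Here the mean spot signal was corrected by normexp (offset 50) on all spots, control and outlier-flagged spots were left out, and the arrays were quantile normalized with limma 3.58.1 in R 4.3.3. Values are log2, averaged over the spots of a probe. Detection required a share of 0.5 or more of the spots of a probe to be flagged well above background on 1 array or both, and a gene took its brightest detected probe by mean log2. A gene detected on 1 array was given as a bound, the bright value against the dim value or, if higher, against the lowest signal detected on that array. Counts took absolute differences of 1 or more at a mean log2 of at least 7.5, the sizes of the study's methods, and list members past this size were named, at most 6 per direction. Psmb5, Psmb6, Psmb7, Irf1, Rfx5, Ciita and Cd74 were always named, 1 further gene of this rule is not reported here, and other genes given with values, such as range ends, were chosen after their values were seen. Members and lists were chosen with earlier results of these data known. With 1 array per group no test was made. Quantile normalization removes any shift that all genes share. The processing was tested on simulated data with large changes in bright probes alone, so dim probes and differences near 1 were not covered. Alternatives in background correction, scaling, spot signal, flags, probe summary, filters and thresholds were tried.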

Additional observations from a re-analysis of the deposited data

How the results depend on the processing

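No paired analysis was possible because the design held 1 array of EpiSC and 1 of ELA-EpiSC. The number of members higher by 1 or more was 7, and it was 2 at a threshold of 2.5. The median difference over members was 1.29, and it was 1.39 with normexp at an offset of 0, 1.46 with normexp values minus the median of each array and 1.83 with the spike-in probes set equal. Of all genes, 750 were higher and 749 lower by 1 or more. These counts were 2612 and 321 with the spike-in probes set equal, 66 and 108 at a threshold of 2.5, and 1827 and 1834 at a threshold of 1.5-fold. With a minimum mean log2 of 9, 487 genes were lower. The cause of the gap between spike-in scaling and the other scalings was not tested. The median of all genes moved by more than 0.1 under 2 scalings, by 0.54 with the spike-in probes set equal and by -0.17 with normexp values minus the 75th percentile. No member changed sign under the 14 settings of the values, of which spike-in scaling and the changed detection filters turned none because they only raised or kept each value. Tap1, Nlrc5 and the second Psmb9 probe lay close to background, and over the settings the second Psmb9 probe ranged from -0.25 to 1.5.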

Other observations

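H2-M2, a class I-like gene of the list, was measured by 2 probes that differed in size. The bright probe read 10.24 and 11.07 in EpiSC and ELA-EpiSC and so differed by 0.83, and the other read 6.46 and 8.91, a difference of 2.45. Both probes of H2-K2 (1.00 and 1.15) and of H2-Q2 (0.94 and 1.09) gave like differences.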
